A study of Mus musculus with 19 samples.

Results

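Cholesterol synthesis was followed through 8 genes of the sterol pathway in RNA sequencing of mouse dorsal hippocampus: Srebf2, Insig1, Hmgcs1, Idi1, Fdft1, Sqle, Lss and Cyp51. The genes were chosen by symbol, and each symbol matched 1 of the 51789 rows of the count table through its Ensembl identifier. The 19 libraries came from male C57BL/6J mice aged 2 to 4 months, in 2 separate experiments. In experiment 1 every mouse carried the tetracycline transactivator tTA and belonged to the SOR condition, which the labels give only as letters. Of its libraries, 5 were tTA+/DN+ (called DN here, for the dominant-negative Nr4A transgene) and 6 were tTA+/DN- controls. In experiment 2 no mouse carried DN. There the SOR group held 4 libraries, 1 of them tTA-/DN- (replicate 1) and 3 tTA+/DN-, and the homecage group held 4 libraries, 2 of them tTA-/DN- (replicates 1 and 2) and 2 tTA+/DN-. The labels do not name the promoter that drives tTA or the time between SOR and dissection.

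Cholesterol is built from acetyl-CoA through mevalonate, isoprenoid units, squalene and lanosterol. Brain cholesterol is made locally because the blood-brain barrier keeps out plasma lipoproteins, and glial cells, above all oligodendrocytes that form myelin, use much of it. Srebf2 encodes SREBP2, a transcription factor made as a membrane protein of the endoplasmic reticulum (ER). When sterols are scarce it leaves the ER and is cleaved in the Golgi, and the released part switches on the genes of sterol synthesis and uptake. Insig1 encodes a protein that holds SREBP2 in the ER when sterols are plentiful. Hmgcs1 (HMG-CoA synthase) acts at the start of the route and Idi1 (isopentenyl-diphosphate isomerase) at the isoprenoid step. Fdft1 (squalene synthase) and Sqle (squalene epoxidase) make and oxidise squalene, Lss (lanosterol synthase) closes the ring system, and Cyp51 removes a methyl group from lanosterol.

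SREBP2 binds sterol response elements, often beside CCAAT boxes bound by NF-Y, so the promoters of 3 genes are shown: the regulator Srebf2, Hmgcs1, the most abundant of the 8, and the feedback gene Insig1. The set of RefSeq promoters used here (build GRCm38.p6) held 6 of the 8 genes and lacked Sqle and Fdft1. The stretches run 5′ to 3′ on the gene's strand, here the plus strand, within the 250 bases before the RefSeq start, and stop before the GENCODE start where that lies earlier. Srebf2 is at chr15:82147019-82147180, Hmgcs1 at chr13:119690101-119690350 and Insig1 at chr5:28071162-28071362. Capitals mark CCAAT on either strand (ATTGG when read on the printed strand) and the sterol response element core TCACNCCAC.
Srebf2: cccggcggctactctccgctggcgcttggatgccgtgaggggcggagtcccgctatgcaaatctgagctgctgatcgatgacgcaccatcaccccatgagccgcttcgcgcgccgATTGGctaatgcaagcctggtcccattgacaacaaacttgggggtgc
Hmgcs1: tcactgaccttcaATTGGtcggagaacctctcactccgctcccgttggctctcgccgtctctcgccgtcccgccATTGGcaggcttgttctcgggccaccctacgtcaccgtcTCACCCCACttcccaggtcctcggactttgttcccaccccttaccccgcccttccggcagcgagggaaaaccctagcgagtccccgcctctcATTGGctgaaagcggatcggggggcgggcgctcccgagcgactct
Insig1: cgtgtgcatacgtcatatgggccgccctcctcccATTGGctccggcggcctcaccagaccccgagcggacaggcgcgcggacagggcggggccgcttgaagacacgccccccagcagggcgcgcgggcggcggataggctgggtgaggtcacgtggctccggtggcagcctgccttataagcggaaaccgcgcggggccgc

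The core TCACNCCAC was in 1 of the 6 promoters, 137 to 129 bases before the start of Hmgcs1, against 1.05% of 32851 RefSeq promoters searched over the same 250 bases on both strands. CCAAT was in 6 of 6, against 33.8% of all, and Hmgcs1 held 3 copies. In Idi1 and Cyp51 the only CCAAT matches lay between the GENCODE start and the later RefSeq start. The element bound by Nr4A monomers, AAAGGTCA, was in none of the 6 and in 1.34% of all. These are matches of letters only.

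Libraries held 22258159 to 66991576 counts, and SOR replicate 3 was the smallest and had the fewest genes detected, 27815. The markers of neurons (6 genes, summed level 3786 to 4788 CPM, that is counts scaled to library size with TMM factors), oligodendrocytes (8 genes, 5665 to 7965 CPM) and astrocytes (8 genes, 4977 to 5811 CPM) were high in every library. Choroid plexus markers (8 genes, none at 0) ranged from 22.4 to 4176 CPM and were above 1000 CPM in 5 libraries: control replicates 1 and 2, DN replicate 2, and SOR replicates 1 and 2. The labels number the libraries without saying that each came from its own animal, so p-values measure the spread between these libraries.

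All 8 genes were well covered, from 347 counts for Idi1 in its lowest library to 22484 for Hmgcs1 in its highest. Per kilobase of merged exon, Hmgcs1 was the highest in every group, at 76.6 ± 8.21 CPM per kb in controls (SD, n = 6), 83.3 ± 11.4 in DN (n = 5), 67.8 ± 4.44 in homecage (n = 4) and 78.3 ± 4.75 in SOR mice (n = 4). Insig1 was second in every group, at 23.1 ± 2.07 CPM per kb in controls and 30.8 ± 4.18 in homecage mice. In controls its range overlapped that of Cyp51. Cyp51 (19.3 ± 2.36) and Fdft1 (17.8 ± 2.22) came next in controls, and their ranges overlapped in all 4 groups. Srebf2 (12.5 ± 0.550) and Sqle (11.7 ± 1.10) followed and also overlapped in all 4 groups, with Sqle marginally ahead in experiment 2. Idi1 (6.73 ± 1.21) and Lss (3.50 ± 0.249 CPM per kb in controls) were the lowest in every group. Apart from Srebf2 and Sqle, the order of the means was the same in all 4 groups; the experiments were scaled separately.

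Strand use in the authors' counting is not given in the sources used here. Fdft1 (ENSMUSG00000021273.9, chromosome 14, 63145150 to 63179578, GRCm38) overlaps the protein-coding gene Ctsb on the other strand, and Cyp51 (ENSMUSG00000001467.5, chromosome 5, 4081145 to 4104746) overlaps Akap9 on the other strand. Reads from the shared stretches cannot be assigned with certainty. Sqle (ENSMUSG00000022351.14, chromosome 15, 59315077 to 59331192) and Insig1 (ENSMUSG00000045294.11, chromosome 5, 28071363 to 28078662) overlap no annotated gene. The other 4 overlap only small non-coding or unclassified genes: Srebf2 (ENSMUSG00000022463.7, chromosome 15, 82147181 to 82205379), Hmgcs1 (ENSMUSG00000093930.1, chromosome 13, 119690379 to 119708260), Idi1 (ENSMUSG00000058258.14, chromosome 13, 8885501 to 8892451) and Lss (ENSMUSG00000033105.12, chromosome 10, 76531588 to 76557138).

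**Figure D1:**
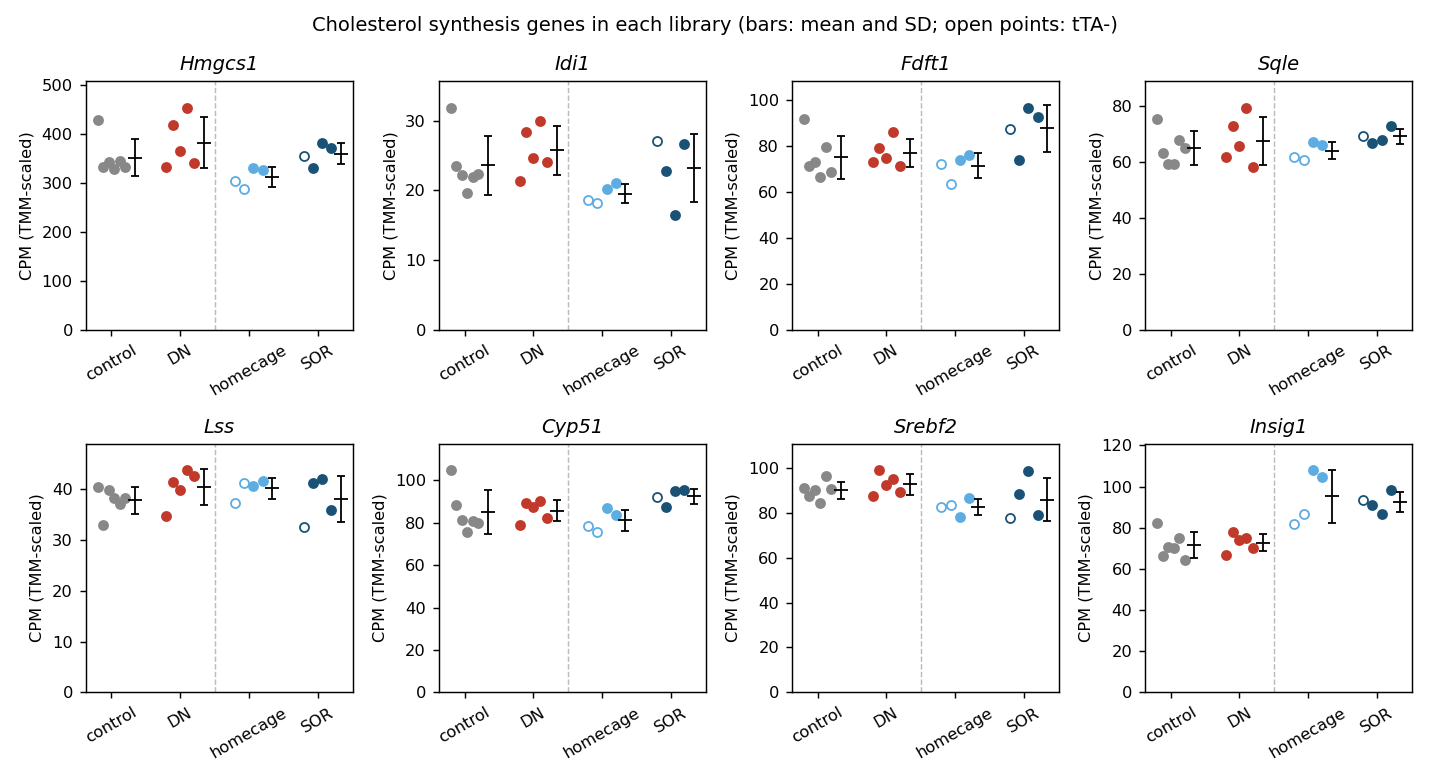
Level of each gene in CPM (vertical axis, from 0) in every library of the 4 groups, with experiment 1 left and experiment 2 right of the dashed line; open points are tTA- mice and bars give mean and SD. Control and DN libraries overlap in every panel, and in Hmgcs1 and Cyp51 the 4 SOR libraries lie above the 4 homecage libraries.

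The first comparison asked whether DN mice differed from controls after SOR. None of the 8 genes was called by edgeR (adjusted p under 0.05 over 22391 genes, a share of 0.00893% called), none reached an unadjusted p of 0.05 (3.83% of all genes did), none had groups without overlap (0.299% of all genes), and DESeq2 and limma-voom called none either. Fitted levels were slightly higher with DN in 8 of 8 genes, against 50% of all genes, but in 5 of 8 without DN replicate 4 and 6 of 8 without control replicate 6. Their median log2 fold change was 0.05 (6.16e-05 over all genes). The genes share libraries and vary together, so this count is not 8 separate observations. In these bulk libraries a change in the number of cells of a type and a change in RNA per cell cannot be told apart.

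In DN replicates 1 to 5 Hmgcs1 reached 333, 419, 366, 454 and 341 CPM, and the controls had a lowest level of 329, a median of 338 and a highest of 428 CPM. DN replicates 2 and 4 and control replicate 1 stood above all others, and the groups overlapped. The means were 382.5 ± 52.1 and 352 ± 37.7 CPM, a log2 fold change of 0.12 (SE 0.0970, 95% interval -0.09 to 0.34, edgeR adjusted p 0.999). Idi1 was at 21.4, 28.4, 24.7, 30.02 and 24.1 CPM with DN and ran from 19.6 through a median of 22.3 to 31.9 CPM among controls. Its log2 fold change was 0.13 (SE 0.125, interval -0.14 to 0.40), the largest of the 8, and its highest library was a control. Without that library, control replicate 1, the log2 fold change was 0.18 for Hmgcs1 (unadjusted p 0.0365) and 0.23 for Idi1 (unadjusted p 0.00893), each with an edgeR adjusted p of 0.987. Without DN replicate 4 the values were 0.05 for Hmgcs1 (unadjusted p 0.564) and 0.07 for Idi1 (unadjusted p 0.620), so a single library could raise or lower either.

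Fdft1 was at 73.3, 79.2, 74.97, 86.3 and 71.5 CPM with DN, against 66.4, 72.2 and 91.9 CPM (lowest, median, highest) in the controls. The highest library was again control replicate 1. Sqle was at 61.7, 72.8, 65.9, 79.5 and 58.3 CPM with DN, against 59.2, 64.2 and 75.3 CPM among controls. Its lowest and its highest library were both DN. Lss was at 34.8, 41.5, 39.8, 43.7 and 42.5 CPM with DN against 32.9, 38.2 and 40.5 CPM among controls. Lss had the smallest unadjusted p of the 8 genes, 0.105, at a log2 fold change of 0.10 (SE 0.0586, edgeR adjusted p 0.999), and 3 of 5 DN libraries exceeded every control. The value was 0.148 (unadjusted p 0.0118, edgeR adjusted p 0.870) without DN replicate 1 and 0.061 (unadjusted p 0.275) without control replicate 2. Cyp51 was at 79.2, 89.5, 87.3, 90.3 and 82.0 CPM with DN against 75.6, 81.2 and 104.7 CPM, with a log2 fold change of 0.01 (SE 0.0737).

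The 2 regulators had the smallest standard errors of the 8. Srebf2 was at 87.4, 99.0, 92.6, 95.3 and 89.3 CPM with DN, against 84.5, 90.4 and 96.3 CPM among controls. Its log2 fold change was 0.04 (SE 0.0392, edgeR adjusted p 0.999), and its 95% interval as a fold ran from 0.973 to 1.09. The log2 value ran from 0.0174 without DN replicate 2 to 0.0631 without control replicate 5, and was 0.0122 without the libraries rich in choroid plexus. Insig1 was at 66.9, 77.7, 73.9, 75.2 and 70.2 CPM with DN, against 64.5, 70.3 and 82.3 CPM among controls. Its fold interval ran from 0.940 to 1.10. The intervals of the 8 genes lay between folds of 0.902 (Cyp51) and 1.32 (Idi1).

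For each of the 8 genes the SD within the DN group or the control group exceeded the difference between their means, and the same libraries tended to be high or low. DN replicate 4 was among the 3 highest of 11 libraries in 8 of 8 genes, DN replicate 2 in 7 and control replicate 1 in 6. Control replicate 4 was among the 3 lowest in 6 genes, and DN replicate 1 and control replicate 2 in 5 each. After centring on each group's mean, all 28 gene pairs had a positive correlation across the 11 libraries, with a median r of 0.708 and a mean of 0.679, against a mean of 0.000713 over all gene pairs. The libraries share their scaling, and the 28 pairs are not independent. Scaling balances rises and falls over all genes, which holds the mean over all gene pairs near 0. That mean therefore cannot show whether the 8 genes vary together more than other genes of like level. The share of all gene pairs with a positive r was not computed.

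Hmgcs1 was set against each of the other 7 genes in both experiments, with p-values from permuting libraries within groups and adjusted over 14 relations. In experiment 1 (n = 11) Hmgcs1 went with Fdft1 at r = 0.878 (permutation p 6e-05, adjusted 8.4e-04) and rho = 0.909 (permutation p 8e-05, adjusted 0.00112). With Idi1 it was r = 0.922 (permutation p 7e-04, adjusted 0.00448) and rho = 0.782 (0.011, adjusted 0.0227), and with Sqle r = 0.915 (permutation p 0.00109, adjusted 0.00448) and rho = 0.791 (0.0113, adjusted 0.0227). With Insig1 it was r = 0.810 (permutation p 0.00128, adjusted 0.00448) and rho = 0.864 (0.00136, adjusted 0.00952), and with Cyp51 r = 0.812 (permutation p 0.00181, adjusted 0.00507) and rho = 0.809 (0.00372, adjusted 0.0174). Pearson values were lower for Srebf2, at r = 0.614 (permutation p 0.0653, adjusted 0.095) and rho = 0.827 (0.00611, adjusted 0.0194), and for Lss, at r = 0.589 (permutation p 0.0679, adjusted 0.095) and rho = 0.573 (0.0969, adjusted 0.146). Without the 2 libraries farthest from the median of Hmgcs1 (control replicate 1 and DN replicate 4), r was 0.813 for Srebf2, 0.782 for Sqle, 0.739 for Insig1, 0.791 for Idi1, 0.610 for Fdft1, 0.583 for Cyp51 and 0.385 for Lss. These values were centred on group means that still included the 2 libraries.

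Choroid plexus markers were high in some of these libraries only, and all 8 were fitted lower with DN (none called). In the libraries often highest in the sterol genes they summed to 4176 CPM (control replicate 1), 1673 CPM (DN replicate 2) and 34.7 CPM (DN replicate 4). In those often lowest they summed to 1378 CPM (control replicate 2), 177 CPM (DN replicate 1) and 27.0 CPM (control replicate 4). Oligodendrocyte markers summed to 6487 to 7122 CPM in DN and 6746 to 7965 CPM in control mice, and astrocyte markers to 5542 to 5811 and 5509 to 5804 CPM. All 4 dentate granule cell markers (Prox1, C1ql2, Dsp and Lct) were fitted lower with DN (median log2 difference -0.11, none called), and DN replicate 4 had their lowest sum of the 11 libraries, 211.5 CPM. The part of any of these cells in the shared spread was not tested.

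**Figure D2:**
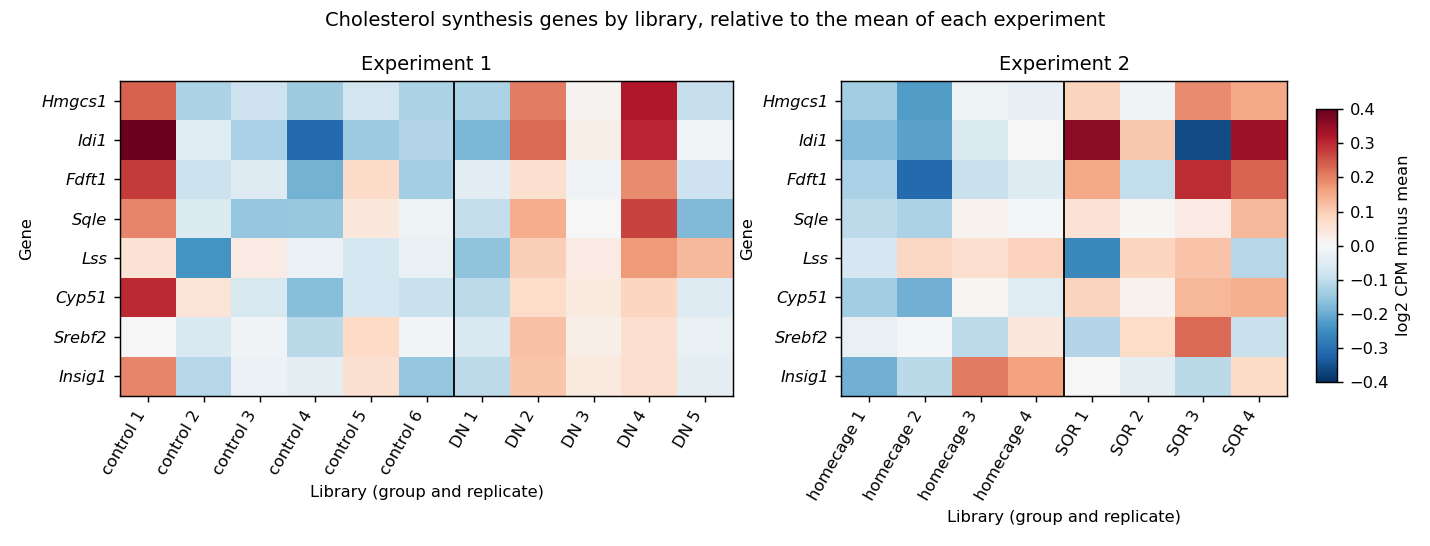
Log2 CPM of the 8 genes (rows) in each library (columns), as the difference from the mean of that experiment (colour), with a line between the 2 groups of each experiment. Control 1, DN 2 and DN 4 are high across most rows of experiment 1; in experiment 2 Idi1 is low in SOR 3 while Hmgcs1, Fdft1 and Cyp51 are high there.

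The second comparison set SOR against homecage mice in experiment 2. Of the 8 genes, none was called by edgeR (0.0897% of 22305 genes were), and none by DESeq2 or limma-voom. Hmgcs1, Fdft1 and Cyp51 were higher after SOR at an unadjusted p under 0.05, where 3.67% of all genes were higher and passed that level. In Hmgcs1 and Cyp51 all 4 SOR libraries lay above all 4 homecage libraries, as in 3.06% of all genes. Fitted levels were higher after SOR in 6 of the 8 genes (51.5% of all genes), and the median log2 fold change was 0.15, against 0.01 over all genes.

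Hmgcs1 reached 355, 331, 381 and 372 CPM in SOR replicates 1 to 4, whereas homecage replicates 1 to 4 held 304, 286.5, 329 and 327 CPM. The lowest SOR library, replicate 2, lay just above the highest homecage library, replicate 3. Means were 360 ± 21.8 and 312 ± 20.4 CPM (SD, n = 4 each), and the log2 fold change was 0.21 (SE 0.0817, unadjusted p 0.0268, edgeR adjusted p 0.621). Cyp51 was at 91.96, 87.4, 94.8 and 95.4 CPM after SOR, whereas homecage libraries held 78.6, 75.7, 86.9 and 83.6 CPM. The gap between the groups was again narrow, and the log2 fold change was 0.19 (SE 0.0776, unadjusted p 0.0350, edgeR adjusted p 0.637).

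Fdft1 had the largest fitted difference of the 8, a log2 fold change of 0.29 (SE 0.1004, unadjusted p 0.0133, edgeR adjusted p 0.612). It was at 87.6, 73.8, 96.8 and 92.8 CPM after SOR, whereas homecage libraries held 72.2, 63.7, 74.2 and 76.2 CPM. SOR replicate 2 lay among the homecage libraries, and the other 3 lay above them. Sqle was at 69.2, 66.7, 68.1 and 72.9 CPM against 61.9, 60.9, 67.2 and 66.2 CPM, overlapping at 1 library of each group. Its log2 fold change was 0.11 (SE 0.0759, edgeR adjusted p 0.689).

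Idi1 was at 27.0, 22.7, 16.4 and 26.7 CPM after SOR, whereas homecage libraries held 18.7, 18.2, 20.2 and 21.1 CPM. SOR replicate 3, the shallowest library, had the lowest Idi1 level of all 8, and the other 3 SOR libraries lay above the homecage group. The log2 fold change was 0.25 (SE 0.144, unadjusted p 0.105, edgeR adjusted p 0.670) with that library and 0.38 (SE 0.0899, unadjusted p 0.00115, edgeR adjusted p 0.209) without it. Lss was at 32.6, 41.3, 42.1 and 36.0 CPM against 37.2, 41.2, 40.7 and 41.5 CPM, and its log2 fold change was -0.08 (SE 0.0991). This ran from -0.135 without SOR replicate 3 to -0.0151 without SOR replicate 1.

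Neither regulator differed beyond the spread. Srebf2 was at 77.5, 88.5, 98.5 and 79.1 CPM after SOR, both the lowest and the highest of the 8 libraries, and at 82.4, 83.7, 78.3 and 86.7 CPM in homecage mice. Its log2 fold change was 0.05 (SE 0.0917, edgeR adjusted p 0.866, fold interval 0.903 to 1.19). Insig1 was at 93.6, 90.9, 86.7 and 98.5 CPM after SOR, whereas homecage libraries held 81.8, 86.65, 107.9 and 104.5 CPM. The 2 tTA+ homecage libraries were the highest and the 2 tTA- homecage libraries were low, with the SOR libraries between, and the log2 fold change was -0.04 (SE 0.102, edgeR adjusted p 0.909).

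The SOR and homecage groups differed in tTA genotype, 3 of 4 against 2 of 4 tTA+. In tTA+ libraries alone (3 against 2) the log2 fold changes were 0.14 for Hmgcs1 (unadjusted p 0.290), 0.12 for Cyp51 (0.352), 0.22 for Fdft1 (0.176) and 0.09 for Idi1 (0.667), and none of the 8 genes had an unadjusted p under 0.05. With tTA as a covariate Hmgcs1 (0.0469) and Fdft1 (0.0257) were under that level and Cyp51 (0.0612) was not. Beside this, oligodendrocyte markers summed to 6149 to 7248 CPM after SOR and 5665 to 6758 CPM in the homecage, and 7 of the 8 were fitted higher after SOR (none called). All 8 choroid plexus markers were fitted higher after SOR (none called), and they summed to 24.6 to 2222 CPM there against 47.3 to 178 CPM. Of the 4 dentate granule cell markers 3 were fitted lower after SOR (median log2 difference -0.32, none called). The part of these cells in the sterol gene differences was not tested; without SOR replicates 1 and 2, which were rich in choroid plexus, the log2 fold changes were 0.27 for Hmgcs1, 0.40 for Fdft1, 0.22 for Cyp51 and 0.145 for Idi1.

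In experiment 2, 18 of the 28 gene pairs had a positive correlation within groups, with a median r of 0.1, and 17 without SOR replicate 3, with a median of 0.578. Wherever libraries were left out of these correlations, values stayed centred on group means that included them. Hmgcs1 went with Cyp51 at r = 0.958 (exact permutation p 0.00347, adjusted 0.00694) and rho = 0.833 (exact p 0.0347, adjusted 0.0608), and with Fdft1 at r = 0.937 (exact permutation p 0.00347, adjusted 0.00694) and rho = 0.881 (exact p 0.00694, adjusted 0.0194), over 8 libraries. Centring and permutation were within the SOR and homecage groups and did not take account of tTA, which differed inside both. Without homecage replicate 2 and SOR replicate 2, the farthest from the median, r was 0.892 for Cyp51 and 0.818 for Fdft1. The other 5 relations of Hmgcs1 had adjusted p of 0.095 or more by exact permutation of r, from r = -0.04 for Idi1 to r = 0.790 for Sqle. Without the same 2 libraries r was 0.844 for Lss (0.0339 with them), 0.443 for Srebf2 (0.0673 with them), 0.613 for Insig1, 0.586 for Sqle and -0.316 for Idi1. Without SOR replicate 3 alone r was -0.214 for Lss, -0.364 for Srebf2, 0.771 for Insig1, 0.943 for Sqle and 0.582 for Idi1. With that centring the sign for Lss, Srebf2 and Idi1 depended on which libraries were kept, whereas Cyp51 (0.973) and Fdft1 (0.925) were high either way. Values centred anew on the libraries kept were not computed.

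**Figure D3:**
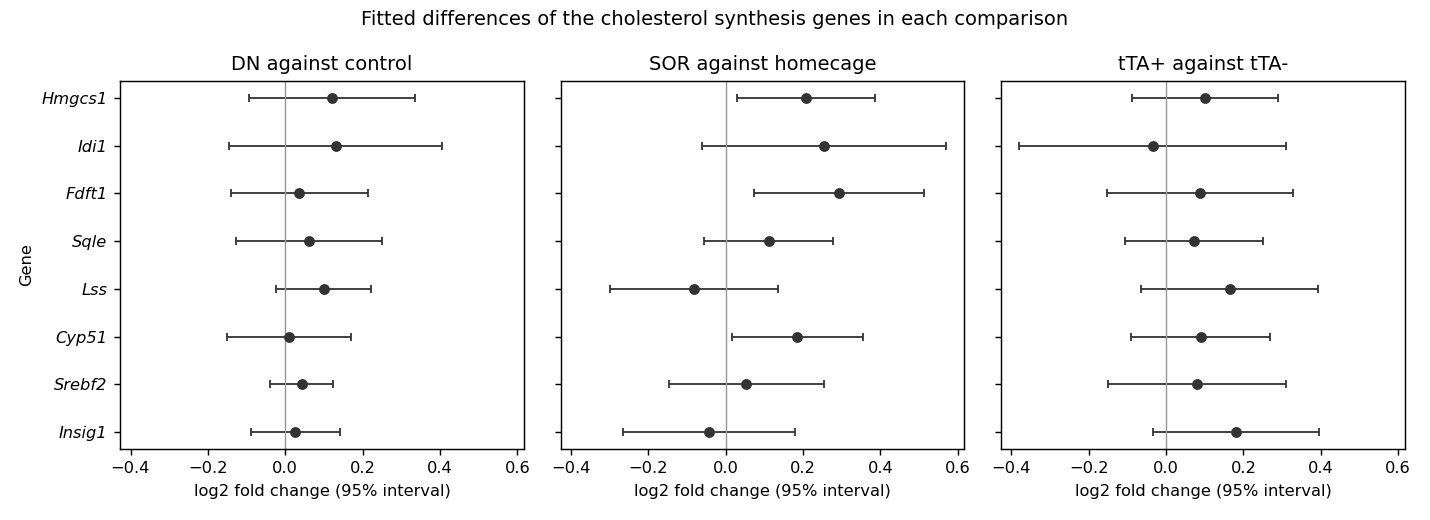
Fitted log2 fold change (horizontal axis) with its 95% interval for each of the 8 genes in the 3 comparisons. Every interval includes 0 for DN and for tTA, and the intervals of Hmgcs1, Fdft1 and Cyp51 exclude 0 for SOR before adjustment.

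The third comparison set tTA+ (n = 5) against tTA- libraries (n = 3) of experiment 2, with exposure in the model. None of the 8 genes was called by edgeR (0.358% of 22904 genes were), by DESeq2 or by limma-voom, and none had an unadjusted p under 0.05 in edgeR (5.71% of all genes did). The median log2 fold change was 0.09, against 0.01 over all genes, and 7 of 8 genes were fitted higher in tTA+ mice (53.2% of all genes). Insig1 had the smallest unadjusted p, 0.0902, at 97.7 ± 8.93 CPM in tTA+ and 87.4 ± 5.96 CPM in tTA- mice. Its log2 fold change was 0.18 (SE 0.0970, interval -0.03 to 0.40, edgeR adjusted p of 1). It was 0.34 without SOR replicate 1 (unadjusted p 0.0164, edgeR adjusted p 0.774) and 0.33 without SOR replicates 1 and 2, both rich in choroid plexus markers (unadjusted p 0.0197, edgeR adjusted p 0.602); over all alternatives the adjusted p ran from 0.408 to 1. Lss followed at 0.16 (SE 0.103), with 40.3 ± 2.50 and 37.0 ± 4.33 CPM, and was 0.07 without SOR replicate 1 or without both libraries rich in choroid plexus. SOR replicate 1 was the only tTA- SOR library. The tTA values of Insig1 and Lss without it therefore rest on 2 tTA+ against 2 tTA- homecage libraries. In the SOR group Insig1 was at 93.6 CPM in the tTA- library and at 90.9, 86.7 and 98.5 CPM in the tTA+ libraries. Hmgcs1 was at 348 ± 26.1 and 315 ± 35.8 CPM, with a log2 fold change of 0.10 (SE 0.0848) that was 0.00256 with the replicate number as a block. All 8 oligodendrocyte markers were also fitted higher in tTA+ mice (median log2 fold change 0.20, none called), and their part in these values was not tested. Markers of dentate granule cells summed to 361 to 437 CPM in the 3 tTA- libraries and to 219.5 to 304 CPM in the 5 tTA+ libraries, 2 of the 4 were called lower in tTA+ mice, and their part was not tested either. The SOR and tTA comparisons use the same 8 libraries.

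The rest of the route was read from a wider list of 45 genes that includes the 8. In the DN comparison none of the 44 tested was called (0.00893% of all genes were) and none had an unadjusted p under 0.05 in edgeR (3.83% of all genes did). DESeq2 and limma-voom also called none. The 13 other sterol synthesis genes of the list had a median log2 difference of 0.03 and were split 9 higher to 4 lower, where 50% of all genes were higher. All 8 tested genes of efflux, storage and turnover were fitted lower with DN (median log2 difference -0.03, none called). After SOR, 11 of those 13 synthesis genes were fitted higher, with a median of 0.12, none called, and 1 was under an unadjusted p of 0.05. Over all genes 51.5% were fitted higher, 0.0897% were called, and 3.67% were higher at an unadjusted p under 0.05. The list genes share libraries, so neither these counts nor those with DN are counts of separate observations.

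That gene was Mvd, which makes isopentenyl diphosphate. Mvd was at 18.97, 18.1, 21.9 and 21.6 CPM after SOR, whereas homecage libraries held 15.7, 15.3, 16.5 and 17.9 CPM. The groups did not overlap, and the log2 fold change was 0.30 (SE 0.101, unadjusted p 0.0131, edgeR adjusted p 0.611). In tTA+ mice alone it was 0.25 (unadjusted p 0.136).

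A further 2 genes of the list had an unadjusted p under 0.05 after SOR. Npc2, which moves cholesterol out of lysosomes, averaged 60.6 ± 2.86 CPM (SOR) and 51.9 ± 5.39 CPM (homecage), a log2 fold change of 0.22 (SE 0.0917, edgeR adjusted p 0.633) without overlap of the groups and 0.10 in tTA+ mice alone. Nr1h3, the sterol-sensing nuclear receptor LXR alpha, was at 6.68 ± 1.80 and 4.60 ± 0.677 CPM, a log2 fold change of 0.53 (SE 0.196, edgeR adjusted p 0.621) that was 0.35 without SOR replicate 3. The fatty acid synthesis genes driven by SREBP1 (6 genes) had a median log2 fold change of -0.04 after SOR, and none had an unadjusted p under 0.05.

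**Figure D4:**
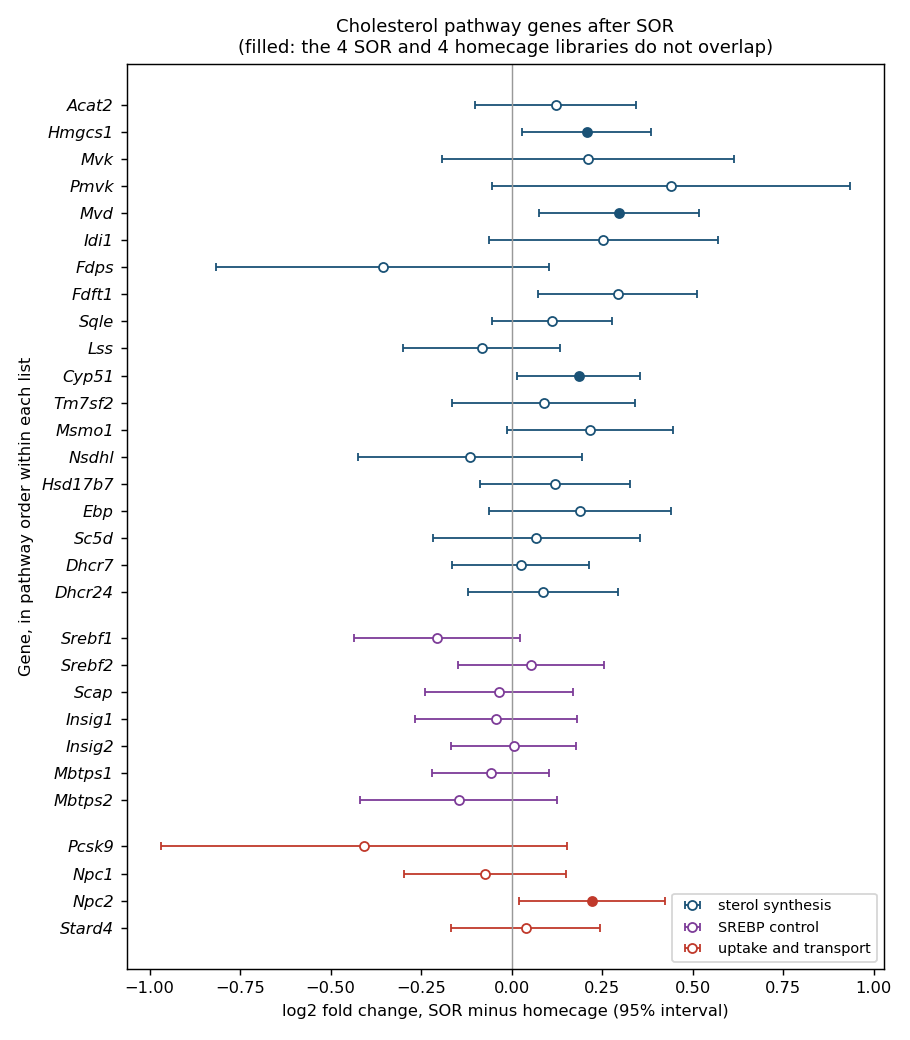
Fitted log2 fold change of SOR minus homecage (horizontal axis) with 95% interval for sterol synthesis, SREBP control, and uptake and transport genes, each list in a colour; filled points are genes whose 4 SOR and 4 homecage libraries do not overlap. Most synthesis genes lie right of 0, 11 of the 13 beside the 8 genes among them, and no gene was called.

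The genes whose pattern was most like that of the 8 were sought among 21732 others tested in both experiments, by Pearson's r with the mean centred log2 CPM of the 8 genes over the 19 libraries. The first and second were sterol synthesis genes, Mvd (r = 0.885) and Msmo1 (r = 0.880), a methylsterol oxidase that acts later than Cyp51. Next came Mmp2 (r = 0.855), a secreted metalloproteinase at 2.52 to 3.96 CPM in experiment 1, Rida (r = 0.849), a deaminase of reactive imines, and Nat8f1 (r = 0.825), from a family of similar acetyltransferases that could share reads. Within the 8 libraries of experiment 2 the first 3 were E2f6 (r = 0.991), Pantr1 (r = 0.981) and Dctn3 (r = 0.979), none of them in the sterol list. These r values were the basis of the choice and carry no test.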

How the data were processed

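RNA was sequenced from dorsal hippocampus after ribosomal RNA depletion. The deposited values are whole-number counts per gene; per the submitters' processing notes the authors used STAR, SAMtools 1.6, featureCounts 1.4.4 and mm10, and strand use, handling of multiply mapped reads and the annotation release are not given in the sources used here. Symbols and positions came from GENCODE M21 (GRCm38), which held 51596 of 51789 identifiers. Levels are CPM after TMM scaling of each experiment, computed here from the counts, and CPM per kb divides by merged exon length.

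Comparisons used edgeR 4.0.16 quasi-likelihood F tests in R 4.3.3 (robust, two-sided, filterByExpr, Benjamini-Hochberg over all genes tested; called at an adjusted p under 0.05), each experiment alone, with 5 against 6, 4 against 4 and 5 against 3 libraries. The standard error is the absolute log2 fold change over the square root of F. Log2 CPM used a prior count of 2. The fits were tested on simulated data. Replicates differed by more than counting noise (chi-square per degree of freedom 4.63 to 73.4), so none was counted as a repeat. Promoter windows were searched for fixed letters.

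Alternatives were other scalings and filters, DESeq2 1.42.0, limma 3.58.1 voom, an adjusted p under 0.1, the replicate block, 1 fit of all 19 libraries, tTA or exposure terms, tTA+ mice alone, each library left out, and, chosen after seeing the data, leaving out the libraries above 1000 CPM of choroid plexus markers. Named are the 8 genes, list genes that were called or had the smallest unadjusted p under 0.05 (up to 5 a comparison), and the genes most like the 8 by Pearson's r (5 over both experiments, 3 in experiment 2). The 8 genes and the lists were chosen with earlier results of these data known, and some items are not reported here.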

Additional observations from a re-analysis of the deposited data

Results flagged for a closer look

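In 2 of 44 groups of values checked for a library far from the rest (11 genes in 4 groups), 1 library stood apart; chance gives about 1 in 20. Hmgcs1 was at 428 CPM in control replicate 1, against 329 to 345 CPM in the other 5 controls. Idi1 was at 31.9 CPM in the same library, against 19.6 to 23.5 CPM. This library had the highest choroid plexus marker sum, 4176 CPM; the part of that tissue in both values was not tested. Without it the log2 fold change with DN was 0.18 for Hmgcs1 and 0.23 for Idi1, and neither was called by edgeR.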

How the results depend on the processing

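The 8 genes and the wider list had 0 calls in each comparison under every alternative run, each library left out included. The median log2 fold change of the 8 ran from 0.02 to 0.10 for DN, 0.10 to 0.18 for SOR and 0.04 to 0.15 for tTA. No scaling moved the median of all genes by over 0.1. The number of the 8 under an unadjusted p of 0.05 after SOR was 3, and ranged from 0 in tTA+ mice alone through 1 with upper quartile scaling or without homecage replicate 1, homecage replicate 2 or SOR replicate 4, to 4 without SOR replicate 3; for DN it was 0, but 2 without control replicate 1, 1 without DN replicate 1 and 1 without the libraries rich in choroid plexus (Idi1, log2 fold change 0.221, unadjusted p 0.0186); for tTA it was 0, but 1 (Insig1) with all 19 libraries in 1 fit, without SOR replicate 1, without SOR replicate 3 and without the libraries rich in choroid plexus.

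Same-numbered libraries had r from -0.051 to 0.211 in experiment 1 and, all positive, from 0.0474 to 0.405 in experiment 2, where replicates 2 and 4 correlated best with their own number; r was not over 0.1 in every pair, and the numbers were not taken to pair the samples. The replicate block left 0 calls, lowered the unadjusted p after SOR to 0.00326 for Fdft1 and 0.00978 for Hmgcs1, and gave log2 fold changes of -0.000474 for Cyp51 with DN and, for tTA, 0.128 for Idi1, -0.102 for Fdft1 and -0.0707 for Mvd, opposite to the values without it. It also took Hmgcs1 to 0.00256 for tTA. In the tTA comparison Idi1 (-0.03) and Srebf2 (0.08) also turned. Idi1 was at 0.0131 without the exposure term and 0.163 without the libraries rich in choroid plexus, where Srebf2 was at -0.0125. With those libraries left out, tTA- mice remained in the homecage group alone. The cause was not tested. With 1 library left out, the fitted values that changed sign ran for DN from -0.023 to 0.0767 (Cyp51), -0.0234 to 0.114 (Mvd), -0.000948 to 0.0694 (Insig1), -0.00676 to 0.111 (Sqle) and -0.00918 to 0.101 (Fdft1), for SOR from -0.116 to 0.0224 (Insig1) and -0.0178 to 0.0996 (Srebf2), and for tTA from -0.00849 to 0.132 (Srebf2) and -0.0928 to 0.167 (Idi1).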
